A study of Capra hircus with 36 samples.

Results

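The miR-29 family and miR-21 are the microRNAs (miRNAs) most often named in work on fibrosis, the build-up of collagen and other matrix in a tissue. The rows of the counts named chi-miR-21, chi-miR-29a, chi-miR-29b or chi-miR-29c were taken, with both arms of each hairpin, and rows labelled as newly predicted were skipped. This gave 7 of the 1391 mature miRNAs: chi-miR-21-5p, chi-miR-21-3p, chi-miR-29a-3p, chi-miR-29a-5p, chi-miR-29b-3p, chi-miR-29b-5p and chi-miR-29c-3p, called by their names without chi- below. Small RNA was sequenced from 6 tissues of 6 adult female goats (Capra hircus), labelled as over 3 years old. The high-altitude group was 3 Tibetan goats from about 3000 m, and the low-altitude group was 3 Chuandong White goats from about 600 m. Spleen, lung, liver, kidney, heart and the longissimus muscle were sampled in each goat, which makes 36 libraries with 3 in each of the 12 combinations of tissue and altitude. Breed and altitude cannot be told apart in this design, since each breed was sampled at 1 altitude. The paper also lists stocking or nomadism for the Tibetan goats against home rearing for the others, and a lower body weight for the Tibetan goats. These differences cannot be told apart from altitude either. No goat is labelled as having fibrosis or any other disease.

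A miRNA guides a silencing complex to messenger RNAs that match its seed, a short stretch near its 5′ end. The members of the miR-29 family share their seed and are known to repress the mRNAs of many collagens, elastin and fibrillin, so they are described as opposing fibrosis. MiR-21, which is transcribed from a unit beside the gene VMP1, is known to rise in activated fibroblasts and in inflamed or injured organs, and is described as promoting it. In the RefSeq table of the goat assembly ARS1.2, MIR21 is likewise listed next to VMP1. MIR29A is listed next to KLF14, and MIR29B and MIR29C lie on the same chromosome with 1 protein-coding gene between them.

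The counts of a library summed to between 7108635 and 14407748 over all mature miRNAs. Levels are given in RPM, the reads-per-million of these totals, at which 3 counts equal 0.208 to 0.422 RPM. The 7 rows together held between 0.252% and 4.73% of a library. All but miR-29b-5p had reads in 36 of 36 libraries, and none had the same counts as another row. The lowest count of the other 6 was 6, for miR-29a-5p in heart of low-altitude goat 2. That is 0.557 RPM, with an exact (Clopper-Pearson) 95% interval from 0.204 to 1.21 that covers counting error only.

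The labelled tissues were compared with marker miRNAs. MiR-208b-3p, made with cardiac myosin, averaged 13405 RPM in heart, 7.78 times the next tissue, and miR-206-3p, made in skeletal muscle, averaged 1633 RPM in muscle, 468 times the next. MiR-122-5p, the main miRNA of hepatocytes, averaged 50587 RPM in liver, and miR-34c-5p, of ciliated cells, averaged 5608 RPM in lung. The liver libraries spread widely, with summed miR-122 rows from 6201 to 179959 RPM and a median of 23588. Of the kidney tubule markers, miR-10b-5p was highest in kidney, with a mean of 314594 RPM, but miR-194-5p was higher in liver, with 16948 RPM against 2568 in kidney, and miR-192 has no row. MiR-150-5p, of mature lymphocytes, was highest in spleen, with 3895 RPM. Of the other leukocyte markers, miR-142-5p and miR-155-5p were also highest in spleen, and miR-223-3p in lung, with 394 RPM against 371 in spleen. The composition of the libraries differed with the tissue. The factors of the trimmed mean of M-values (TMM), which correct a library's total for a few very abundant miRNAs, had a geometric mean from 0.582 in muscle to 1.37 in lung. Using them shifts a level in muscle up by 0.78 on the log2 scale and shifts one in lung by -0.45, so the order of tissues can depend on the scale.

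The row chi-miR-21-5p, the guide arm of miR-21, was the most abundant of the 7, with rank 18 of 1391 by mean RPM. In spleen it ranged from 9772 to 35655 RPM over 6 goats with a median of 27475, and in lung from 8762 to 20393 with a median of 15865. In liver it ranged from 6765 to 23326 RPM with a median of 15246, and in kidney from 3185 to 11559.8 with a median of 6118. Muscle and heart formed the low end. In muscle it ranged from 1077 to 3846 RPM with a median of 1970.0, and in heart from 949 to 2068 with a median of 1642. Every spleen, lung and liver library lay above every muscle and heart library. The lowest spleen value, from low-altitude goat 1, lay inside the ranges of lung and liver.

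The mean of miR-21-5p was 26980.4 ± 9427 RPM (SD, n = 6) in spleen and 1638 ± 416 RPM (SD, n = 6) in heart, a 16.5-fold difference. The tissues were compared in pairs within goats, by the exact sign-flip test on log2(RPM + 1) with Benjamini-Hochberg adjustment over the 15 pairs. Libraries of an altitude with the same replicate number were taken as 1 goat, a link that the paper does not state. With 6 goats no p can go below 0.03125, so an adjusted p under 0.05 needs at least 10 pairs in which all goats point the same way. MiR-21-5p had 12 such pairs (two-sided exact sign-flip test, adjusted p = 0.0391 for each). The neighbours in the order that did not separate were heart and muscle (exact sign-flip test, adjusted p = 0.469), liver and lung (adjusted p = 0.5, exact), and lung and spleen (adjusted p = 0.108, exact), the last with 5 of 6 goats higher in spleen. With TMM-scaled totals the order of the 6 means was the same and spleen exceeded heart 9.75-fold, but all 6 goats pointed the same way in only 8 pairs, and 0 pairs reached an adjusted p under 0.05 by the same exact test, the smallest being 0.0586.

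The sum of the leukocyte miRNAs broadly moved with miR-21-5p from tissue to tissue. All 4 names of the leukocyte list, miR-142, miR-150, miR-155 and miR-223, have rows, and their rows summed to a median of 38462 RPM in spleen, against 11259 for liver, 10351 for lung, 2939 for kidney, 1966 for heart and 1162 for muscle. The most abundant row was miR-142-5p, and miR-223-3p was at 0 in 5 libraries. The rows did not all follow the sum. MiR-142-5p, miR-150-5p and miR-155-5p were highest in spleen, but miR-223-3p was highest in lung. MiR-150-5p averaged 556 RPM in muscle and 241 in heart, above the 218 in liver and 106 in kidney, whereas miR-142-5p and miR-155-5p were lowest in muscle. Over the 36 libraries, which share tissues and goats, log2 levels of miR-21-5p and of this sum had a Pearson r of 0.826, and of -0.0162 once each tissue's mean was removed. In spleen the sum was 17706, 67536 and 62145 RPM in high-altitude goats 1, 2 and 3, and 36592, 35260.0 and 40332 RPM in the low-altitude goats. The spleen with the lowest sum, from high-altitude goat 1, held 35286 RPM of miR-21-5p, whereas that with 36592 RPM, from low-altitude goat 1, held 9772. The part of leukocytes in the level of miR-21-5p was not tested. In bulk tissue, fewer cells of a type and less RNA per cell cannot be told apart.

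The miRNAs whose log2 levels over the 36 libraries were most like those of miR-21-5p, among 288 known or conserved rows averaging at least 10 RPM, were miR-93-5p (Pearson r 0.921), miR-320-3p (0.889) and miR-155-5p (0.871). With tissue means removed, r was 0.671, 0.598 and 0.586. Among markers of fibroblasts, miR-199a and miR-214 have rows and summed to medians from 3328 RPM in heart to 8788 in spleen, with miR-199a-3p the most abundant row. Log2 levels of that sum and of miR-21-5p had r of 0.767, and of 0.383 with tissue means removed.

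MiR-21-3p, the passenger arm of the same hairpin, was lower than miR-21-5p in every library. It ranged from 55.4 to 711 RPM in spleen with a median of 202, from 66.0 to 718 in liver with a median of 128, and from 14.0 to 534 in lung with a median of 70.7. In kidney the median was 54.9 RPM, in heart 13.6 and in muscle 10.1. The mean in spleen was 31.2 times that in muscle by RPM and 14.4 times with TMM-scaled totals, with the same order of tissues. Within spleen, liver and lung the values spread widely, since low-altitude goats 2 and 3 had the highest 2 values in each. The ratio of miR-21-5p to miR-21-3p accordingly ran from 26.1, in liver, to 627, in lung. The log2 levels of the arms had a Pearson r of 0.853 over the 36 libraries and of 0.528 with tissue means removed.

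MiR-29a-3p made up most of the family's 3p reads. Its share of the summed miR-29a, miR-29b and miR-29c 3p counts had a median of 94.7% and ran from 77.3%, in heart, to 98.2%, in liver. MiR-29b-3p had a median share of 4.58% and miR-29c-3p one of 0.659%. The 3 sequences are near-identical, and how reads that match more than 1 of them were assigned is not given in the sources used here, so the split between them is uncertain.

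Liver had the most chi-miR-29a-3p and heart the least. In liver it ranged from 5577 to 12815 RPM with a median of 7684, and in spleen from 3742 to 10882 with a median of 5546. In lung it ranged from 3097 to 5408 RPM with a median of 3398, and in kidney from 1853 to 5707 with a median of 3137. Muscle and heart were again at the low end, with 1676 to 3630.4 RPM and a median of 2676 in muscle, and 722 to 2760.1 RPM and a median of 1419.5 in heart. The range of liver lay above those of lung, muscle and heart, while liver and spleen, spleen and lung, and lung and kidney overlapped. Liver averaged 8302 ± 2419 RPM (SD, n = 6) and heart 1582 ± 704 RPM (SD, n = 6), a 5.25-fold difference. All 6 goats pointed the same way in 9 of the 15 pairs, 1 short of the number needed, and 0 pairs had an adjusted p under 0.05 (exact sign-flip test, smallest adjusted p = 0.0521, with the 9 pairs at an unadjusted p of 0.03125). On the TMM scale liver stayed the highest and heart the lowest, at 3.15-fold, but muscle moved up to the next place after liver with a mean of 4939.9.

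MiR-29b-3p was highest in spleen and lowest in muscle by RPM. It ranged from 110.4 to 494 RPM in spleen with a median of 322, and from 47.3 to 99.2 in muscle with a median of 73.9. In kidney, liver, heart and lung the medians were 189, 192, 171 and 160.1 RPM, with ranges that overlapped. All 6 goats had less in muscle than in each of the other 5 tissues (exact sign-flip test, p = 0.03125, adjusted p = 0.0938 for each), and 0 of 15 pairs passed after adjustment. This order depends on the scale. With TMM-scaled totals heart had the highest mean, 249, and lung the lowest, 123, and in 0 pairs did all 6 goats point the same way.

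The level of chi-miR-29c-3p was lowest in liver. There, where miR-29a-3p was highest, miR-29c-3p ranged from 5.34 to 13.9 RPM with a median of 8.07. In kidney it ranged from 17.7 to 61.9 RPM with a median of 25.9, and in heart from 19.97 to 43.2 with a median of 29.3. Every liver library thus lay below every kidney, heart and muscle library. In muscle, lung and spleen the medians were 25.5, 21.4 and 17.8 RPM. Kidney averaged 35.5 ± 20.3 RPM (SD, n = 6) and liver 8.63 ± 2.88 RPM (SD, n = 6), a 4.11-fold difference. By RPM 5 pairs had all goats on the same side, and 0 pairs passed (exact sign-flip test, smallest adjusted p = 0.0938). With TMM-scaled totals 10 pairs passed (exact sign-flip test, adjusted p = 0.0469), liver was again the lowest, and muscle had the highest mean, 44.0, which is 6.70 times that of liver, followed by heart, 41.8, and kidney, 35.4.

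The ratio of miR-29a-3p to miR-29c-3p does not depend on how library totals are scaled. It does depend on the uncertain split of reads between these near-identical sequences. In liver miR-29c-3p had a median share of only 0.0976% of the family's 3p counts. Its median over 6 goats was 1005 in liver and 294 in spleen, and then 183 for lung, 117 for muscle, 106 for kidney and 49.5 for heart. The lowest value in liver was 616, and the highest in heart was 138. Every liver library except that of high-altitude goat 3 lay above every library of the other tissues, the exception being below a spleen library of the same goat, at 900.4.

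The 5p arms of the family were rare. MiR-29a-5p ranged from 0.557 to 18.4 RPM over all libraries, with the highest median, 10.4, in spleen and the lowest, 1.98, in heart. Its mean in spleen was 6.81 times that in heart, while with TMM-scaled totals muscle had the highest mean, 9.20, followed by spleen, 8.84, and exceeded heart 4.23-fold. MiR-29b-5p had no reads in 25 libraries and at most 9 in any other, so its levels lay at or near the limit that 3 counts set. It was at 0 in all 6 liver libraries.

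**Figure D1:**
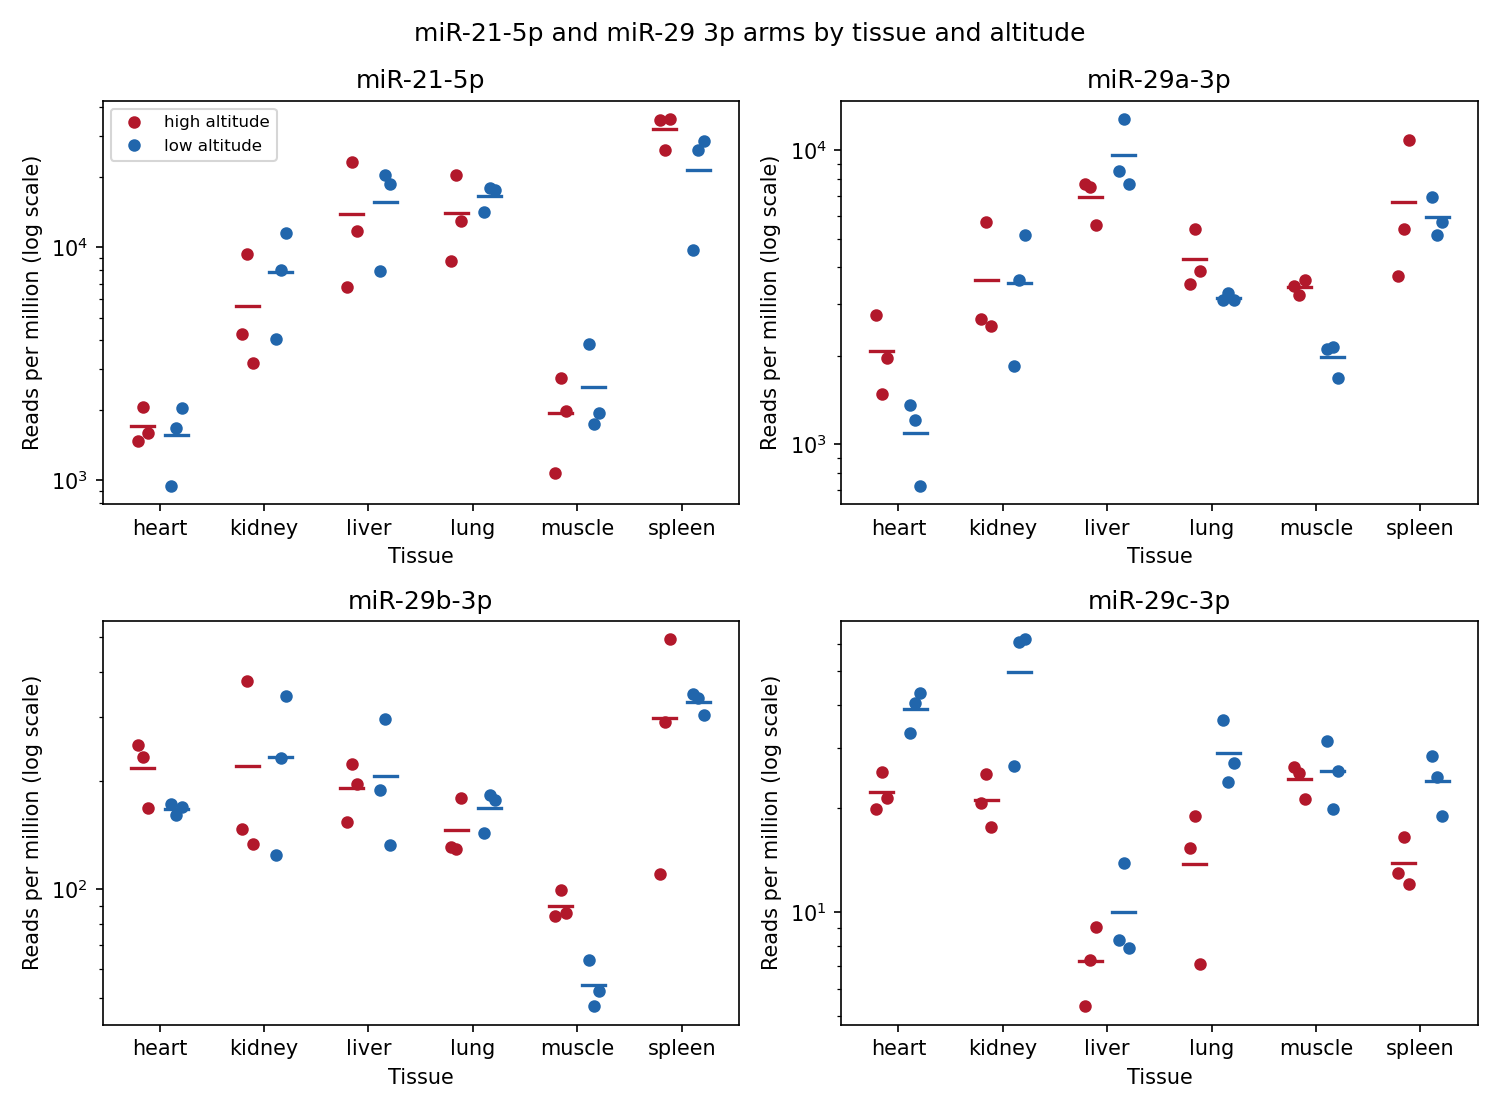
RPM of miR-21-5p, miR-29a-3p, miR-29b-3p and miR-29c-3p (vertical axes, log scale) in 6 tissues (horizontal axes), with a point for each goat in red for high altitude and blue for low altitude and a bar at the mean of 3. MiR-21-5p reaches 35655 RPM in spleen and falls to 949 in heart; miR-29c-3p is lowest in liver, at 5.34 to 13.9 RPM, and its red points lie below the blue ones in heart, kidney, lung and spleen.

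The tissue specificity index (TSI), which is 0 for equal means in the 6 tissues and 1 for a miRNA found in a single tissue, was 0.698 for miR-21-5p, 0.656 for miR-21-3p, 0.569 for miR-29a-3p, 0.462 for miR-29b-3p and 0.41 for miR-29c-3p by RPM. With TMM-scaled totals it was 0.667, 0.662, 0.434, 0.316 and 0.486 in the same order, so miR-29c-3p moved from the lowest to the highest of the miR-29 3p rows. The median TSI of the 308 rows averaging at least 10 RPM was 0.696 by RPM. With edgeR's quasi-likelihood F test over 12 groups, 7 of 7 rows differed between tissues at an adjusted p under 0.05, against 39.3% of the 1391 rows. The adjusted p was 1.79e-08 for miR-21-5p, 3.00e-08 for miR-29c-3p, 7.25e-05 for miR-29a-3p and 0.0116 for miR-29b-3p. With TMM-scaled totals the highest tissue mean of miR-29b-3p was only 2.02 times the lowest. TMM may not fully correct a strong change in a single direction, and the part of library composition in such a call was not tested. The call of miR-29b-5p (adjusted p = 0.0286 from edgeR) rests on its few reads, and it was lost when the goat was added as a block (adjusted p = 0.133 from edgeR) and with DESeq2 (adjusted p = 0.150), and ran from 0.0286 to 0.373 over 11 fits, of which 2 gave a call. The effect of altitude was not shown to differ between tissues for any of the 7. In edgeR's interaction test 0 of 7 passed and the unadjusted p was under 0.05 for 0 of 7, while 0.216% of all rows passed.

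The high-altitude and low-altitude goats were then compared within each tissue with edgeR, with a call at an adjusted p under 0.05 and a log2 fold change, high over low, of at least 1.5 in either direction. In heart 0 of 7 rows were called, against 0% of the 1391 tested, and in kidney 0 of 7, against 0%. In liver 0 of 7 were called, against 0%, and in lung 0 of 7, against 0%. In muscle 0 of 7 were called, against 0.0719%, and in spleen 0 of 7, against 0.144%. At an unadjusted p under 0.05 there was 1 of the 7 in heart, 1 in kidney and 1 in lung, and 0 in liver, muscle and spleen. Of all 1391 rows, 89 had such a p for heart, 64 for kidney, 66 for lung, 59 for liver, 86 for muscle and 80 for spleen. DESeq2 with the same thresholds also called 0 of 7 in each tissue, although of the rows it tested it called 4.47% for heart, 3.87% for spleen, 3.82% for muscle, 3.28% for liver, 2.86% for kidney and 2.5% for lung.

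MiR-29c-3p had low-altitude values above all high-altitude values in 4 tissues, more than any other of the 7. In heart it was 19.97, 25.6 and 21.5 RPM in the high-altitude goats and 33.0, 40.5 and 43.2 RPM in the low-altitude goats. In kidney it was 20.8, 25.1 and 17.7 RPM in the high-altitude group and 26.6, 60.7 and 61.9 RPM in the low-altitude group. In both tissues every low-altitude goat lay above every high-altitude goat, by a narrow margin in kidney, where low-altitude goat 1 was close to the high-altitude group. In lung it was 15.3, 19.0 and 7.06 RPM in the Tibetan goats and 36.03, 23.9 and 27.1 RPM in the Chuandong White goats. In spleen it was 13.0, 16.5 and 12.1 RPM in the Tibetan goats and 28.5, 24.7 and 19.0 RPM in the Chuandong White goats. The groups did not overlap in these tissues either. In muscle, with 26.3, 25.4 and 21.3 RPM against 31.5, 19.9 and 25.6 RPM, and in liver, with 5.34, 7.28 and 9.06 RPM against 8.29, 13.9 and 7.86 RPM, they overlapped.

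The log2 fold change of miR-29c-3p by edgeR was -0.96 in heart (SE 0.29, adjusted p = 0.538), -1.05 in kidney (SE 0.41, adjusted p = 0.959), -1.01 in lung (SE 0.43, adjusted p = 0.832) and -0.86 in spleen (SE 0.47, adjusted p = 0.729), where SE is the standard error. The unadjusted p values from edgeR were 0.0159, 0.0390, 0.0524 and 0.111 in the same order. In heart DESeq2 gave an adjusted p of 0.0126 with a log2 fold change of -0.98, which is under the size needed for a call. The adjusted p in heart ran from 0.0126 to 1 over the fits tried. Low-altitude values above all high-altitude values in at least 4 of the 6 tissues were found for 1 of the 5 rows here that averaged at least 10 RPM, and for 5.84% of the 308 such rows. The separation of miR-29c-3p in heart, kidney, lung and spleen held with TMM-scaled totals.

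MiR-29a-3p had the other direction in muscle, heart and lung. In muscle it was 3463, 3211 and 3630.4 RPM in the high-altitude goats and 2107, 2142 and 1676 RPM in the low-altitude goats. In heart it was 2760.1, 1482 and 1965 RPM against 1357, 1207 and 722 RPM. Every high-altitude goat lay above every low-altitude goat in both tissues. The summed leukocyte rows moved the same way in heart without overlap, with 3509, 2007 and 2819 RPM against 1926, 1886 and 1532 RPM, and their part was not tested. In lung it was 3517, 5408 and 3881 RPM in the Tibetan goats and 3099, 3279 and 3097 RPM in the Chuandong White goats, again without overlap. In liver the low-altitude goats were higher, with 8546, 12815 and 7689.8 RPM against 7679, 7503 and 5577 RPM, although the closest values of the groups nearly met. Kidney, with 2659, 5707 and 2530.3 RPM against 1853, 3615 and 5176 RPM, and spleen, with 3742, 5387 and 10882 RPM against 6926, 5144 and 5706 RPM, overlapped.

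None of these differences was called. The log2 fold change of miR-29a-3p by edgeR was 0.93 in muscle (SE 0.41, adjusted p = 0.746), 0.71 in heart (SE 0.39, adjusted p = 0.770), 0.62 in lung (SE 0.35, adjusted p = 0.832) and -0.34 in liver (SE 0.34, adjusted p = 0.871). Over the fits tried, with each goat left out in turn among them, it ran from 0.35 to 0.92 in heart and from -0.52 to -0.14 in liver. High-altitude values above all low-altitude values in at least 3 tissues were found for 1 of the 5 rows here and for 6.17% of the 308. With TMM-scaled totals the groups of miR-29a-3p overlapped in heart and liver, stayed apart in muscle and lung, and came apart in kidney, with the high-altitude goats higher.

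MiR-29b-3p overlapped between altitudes in every tissue but muscle. There it was 84.5, 99.2 and 86.1 RPM in the high-altitude goats and 63.4, 47.3 and 52.3 RPM in the low-altitude goats. Its log2 fold change in muscle by edgeR was 0.85 (SE 0.39, adjusted p = 0.746) and lay between -0.28 and 0.21 in the other tissues. In muscle miR-29a-3p and miR-29b-3p were thus both higher at high altitude without overlap, while miR-29c-3p was not.

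MiR-21-5p overlapped between altitudes in all 6 tissues by RPM. In spleen it was 35286, 26254 and 35655 RPM in the high-altitude goats and 9772, 26220.5 and 28695 RPM in the low-altitude goats. In heart, with 1470.2, 2068 and 1598 RPM against 949, 1687 and 2056 RPM, and in lung, with 8762, 20393 and 12974 RPM against 14132, 18036 and 17598 RPM, the groups were intermixed. Low-altitude goat 1 was the lowest in spleen and in heart. In muscle, by contrast, that goat was the highest, with 3846 RPM against 1739 and 1953 in the other low-altitude goats and 1077, 2765 and 1987 at high altitude. The log2 fold change ran from -0.45 in kidney to 0.52 in spleen, with standard errors from 0.30 to 0.50 and no adjusted p below 0.887 (edgeR). Over the fits tried it ran from -0.55 to -0.29 in kidney and from 0.14 to 0.82 in spleen. With TMM-scaled totals the kidney values did separate, with the low-altitude goats higher.

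The altitude difference of miR-21-3p was largest in lung. In lung it was 14.0, 48.8 and 58.5 RPM in the high-altitude goats and 82.9, 534 and 448 RPM in the low-altitude goats. Every low-altitude lung lay above the high-altitude ones, and low-altitude goats 2 and 3 stood far above the rest. The log2 fold change by edgeR was -2.78 (SE 0.91, unadjusted p = 0.0195, adjusted p = 0.832), and DESeq2 gave an adjusted p of 0.0838. The adjusted p ran from 0.0838 to 1 over the fits tried, and with TMM-scaled totals the groups overlapped. In liver it was 139, 118 and 66.0 RPM in the Tibetan goats and 79.4, 327 and 718 RPM in the Chuandong White goats, and in spleen 117, 207 and 197 RPM against 55.4, 602 and 711 RPM. In spleen low-altitude goat 1 lay below all the high-altitude goats. In both tissues the groups overlapped. The log2 fold change by edgeR was -1.69 in liver (SE 0.80, adjusted p = 0.726) and -1.53 in spleen (SE 0.87, adjusted p = 0.729). Without low-altitude goat 3 the value in liver was -0.70, and without high-altitude goat 3 that in lung was -3.58. With the replicate number as a block the value in spleen was -0.93.

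The ratio of miR-21-5p to miR-21-3p in lung was 627, 418 and 222 in the high-altitude goats and 170.5, 33.8 and 39.3 in the low-altitude goats. The groups did not overlap there, and they did in the other 5 tissues. In lung the ratio of miR-29a-3p to miR-29b-3p did not overlap either, with 26.9, 41.9 and 21.7 against 21.6, 17.9 and 17.5. Such ratios are common: of the 23436 pairs among 217 rows averaging at least 10 RPM with reads in every library, 26.5% had a ratio that did not overlap in lung.

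Counted over the 5 rows averaging at least 10 RPM, altitude groups did not overlap, in either direction, for 2 rows in heart, against 32.5% of the 308 rows, and for 1 row in kidney, against 13%. The count was 1 in liver, against 19.5%, 3 in lung, against 20.8%, 2 in muscle, against 23.7%, and 1 in spleen, against 23.7%. With 5 rows, a difference of 1 row moves these shares more than most of the gaps to the background.

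By edgeR miR-29a-3p and miR-29c-3p leaned in opposite directions in heart, kidney, lung and spleen, and in the same direction in liver and muscle. The log2 fold change of miR-29a-3p was only 0.10 in kidney and 0.08 in spleen. The ratio of miR-29a-3p to miR-29c-3p was examined after these values had been seen, and no p is given for it. In heart the ratio was 138, 57.9 and 91.4 in the high-altitude goats and 41.1, 29.8 and 16.7 in the low-altitude goats. In lung it was 229, 285 and 550.0 in the Tibetan goats and 86.0, 137 and 114 in the Chuandong White goats. In kidney it was 128, 227 and 143 in the Tibetan goats and 69.6, 59.5 and 83.7 in the Chuandong White goats. In these tissues, and in muscle with 132, 126 and 171 against 66.9, 107 and 65.3, every high-altitude goat had the higher ratio. In spleen, with 288, 326 and 900.4 against 243, 208 and 300.0, and in liver, with 1438, 1031 and 616 against 1031, 920.2 and 979, the groups overlapped. Averaged over the 6 tissues of a goat, the log2 ratio was 7.94, 7.86 and 8.21 in the Tibetan goats and 6.99, 7.03 and 6.91 in the Chuandong White goats, a difference of 1.03. Of the same 23436 pairs of rows, 12.3% had ratios apart in the same direction in at least 4 tissues, and 39.2% had goat means that did not overlap.

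**Figure D2:**
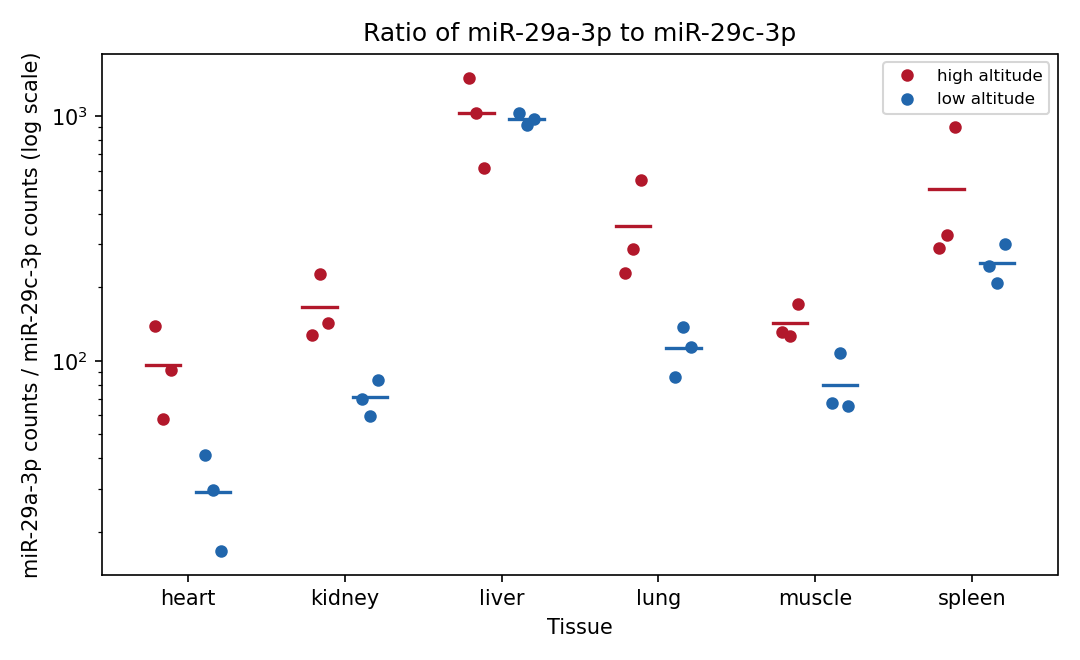
Ratio of miR-29a-3p counts to miR-29c-3p counts (vertical axis, log scale) in 6 tissues (horizontal axis), with a point for each goat in red for high altitude and blue for low altitude and a bar at the mean of 3. The red points lie above the blue ones in heart, kidney, lung and muscle, and the liver points, from 616 to 1438, overlap.

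Each goat's log2(RPM + 1) was averaged over its 6 tissues and the 3 goats of each altitude were compared by an exact permutation test with 20 assignments, for which 0.1 is the smallest possible two-sided p. For miR-29c-3p these means were 4.02, 4.28 and 3.87 in the high-altitude goats and 4.70, 4.82 and 4.74 in the low-altitude goats. The groups did not overlap, and the high-altitude mean was different by -0.70 (exact permutation, p = 0.1). For miR-29a-3p they were 11.85, 12.06 and 11.98 against 11.62, 11.80 and 11.59, without overlap and with a difference of 0.29 (exact permutation, p = 0.1). Of the 5 rows averaging at least 10 RPM, 2 had such means that did not overlap, against 27.9% of the 308. For miR-21-5p the difference was -0.09 (exact permutation, p = 0.9) and for miR-29b-3p 0.05 (exact permutation, p = 0.8), with the groups overlapping in both. The largest difference was that of miR-21-3p, -0.94, with the groups overlapping (exact permutation, p = 0.4). Its means were 5.22, 5.67 and 5.33 in the high-altitude goats and 5.17, 6.82 and 7.06 in the low-altitude goats. The size of this difference thus rests on low-altitude goats 2 and 3, while low-altitude goat 1 lay below all the high-altitude goats.

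Among themselves, over the 36 libraries, log2 levels of miR-29a-3p and miR-29b-3p had a Pearson r of 0.473, and of 0.716 with tissue means removed. MiR-29c-3p had r of -0.565 with miR-29a-3p and of -0.0190 with miR-29b-3p, which became -0.0525 and 0.260 with tissue means removed. MiR-21-5p and miR-29a-3p had r of 0.725, and of 0.175 with tissue means removed. The miRNAs most like miR-29a-3p were miR-33a-5p (r 0.778), let-7g-5p (0.774) and miR-106b-3p (0.766). Those most like miR-29b-3p were let-7g-3p (0.811), miR-330-5p (0.759) and miR-103-3p (0.758), and those most like miR-29c-3p were miR-190a-5p (0.748), miR-30f-5p (0.648) and miR-30b-5p (0.625). The libraries share tissues and goats, so these coefficients are descriptions only.

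Other miRNAs linked to fibrosis were counted for comparison, each by its most abundant row. Of 6 names described as promoting it, miR-199a, miR-214, miR-34a, miR-155 and miR-208b have rows and miR-192 has none. Between tissues 3 of these 5 differed (edgeR F test, adjusted p under 0.05), and between altitudes 0 of their 30 tests were called by edgeR, 1 upward and 1 downward having an unadjusted p under 0.05. DESeq2 called 1 upward and 0 downward. Of 10 names described as opposing it, miR-30c, miR-26a, miR-133a, miR-101, miR-200a, miR-200b, miR-200c, let-7d, miR-24 and miR-122, all 10 differed between tissues, against 546 of all 1391 rows. Between altitudes edgeR called 0 of their 60 tests, with 6 upward and 4 downward at an unadjusted p under 0.05, and DESeq2 called 4 upward and 2 downward. MiR-30c-5p gave 1 of these 4 downward tests and 1 of the 2 downward DESeq2 calls. Its log2 fold change ran from -13.2 to 15.2 over the tissues, extremes whose cause was not tested. Over all rows and tissues edgeR made 8346 tests and called 3, and 193 upward and 251 downward had an unadjusted p under 0.05. DESeq2 tested fewer rows, from 785 in muscle to 946 in liver, and called 82 upward and 97 downward over the tissues. By tissue, its calls were from 2.5% of the rows tested in lung to 4.47% in heart. The median log2 fold change was 0.13 for the promoting and 0.11 for the opposing names, and 0 over all rows. That background includes rows without reads, since a library had reads for 524 to 671 of the 1391 rows. For the 308 rows averaging at least 10 RPM the median was 0.16 in muscle. In the other tissues it lay between -0.056, in liver, and 0.026, in spleen. MiR-155, miR-199a, miR-214, miR-208b, miR-133a, miR-122, miR-200b and miR-200c are also markers of cell types, so they also report on which cells a tissue holds, which was not separated here.

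The remaining marker lists gave the following sums of their rows. Epithelial miR-200b, miR-200c, miR-141 and miR-375 had a median of 7494 RPM in lung and 1162 in kidney, and 8.46 in heart, with miR-375-3p at 0 in 35 libraries. Of the erythroid names miR-144 and miR-486 have rows, with medians from 440.2 RPM in kidney to 18598 in muscle, and miR-144-3p was at 0 in 16 libraries. The 2 rows disagreed on the tissue. MiR-486-5p, the most abundant, averaged 22874 RPM in muscle, 22401 in heart and 4087 in spleen. MiR-144-3p was highest in spleen, with 799 RPM against 11.9 in muscle, so the sum does not rank tissues by erythroid cells. Endothelial miR-126 ran from 6943 RPM in muscle to 20864 in lung, and smooth muscle miR-143 and miR-145 from 22793 in muscle to 408864 in spleen, by tissue medians. With tissue means removed, r of the leukocyte, fibroblast, endothelial and smooth muscle sums with miR-21-5p or miR-29c-3p ran from -0.276 to 0.383. The fibroblast sum had r of 0.654 with miR-29b-3p, 0.49998 with miR-29a-3p and 0.426 with miR-21-3p on that scale, and the leukocyte sum had 0.455 with miR-29a-3p. The part of these cells in the altitude differences was not tested.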

How the data were processed

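The authors mapped reads to the goat genome ARS1 with Bowtie, without mismatches, quantified mature miRNAs with miRDeep2, and deposited whole-number counts per mature miRNA without normalization; CASAVA 1.8 is also named. Members and lists were chosen with earlier results of these data known. RPM was computed on each library's summed counts. Altitude within tissue was fitted with edgeR 4.0.16 (TMM, quasi-likelihood F test, Benjamini-Hochberg adjustment over 1391 rows) in R 4.3.3, and tissue and its interaction with altitude in 1 fit of 12 groups. Alternatives were DESeq2 1.42.0, RLE size factors, library totals, filterByExpr, summed arms, 1 fit over 36 libraries, a replicate block and each goat left out. Named miRNAs were the 7 rows, the 3 most correlated with each of 4 main rows, and the lists of fibrosis-linked and cell type miRNAs. Exact tests used Python 3.11.15 with NumPy 2.4.6 and SciPy 1.17.1. The paper states that the 6 tissues were sampled from each goat, but not that the number in a sample's title names the goat. Libraries of an altitude with the same number were taken as 1 goat, which pairs libraries between tissues. Over 308 rows the correlation of their deviations from group means averaged 0.0677 and exceeded 0.1 in 40 of 90 pairs. It averaged 0.0746 over the 18 pairs of high and low goats that share only a number, so these values do not show the pairing.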

Additional observations from a re-analysis of the deposited data

Results flagged for a closer look

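For miR-29a-3p every high-altitude goat lay above every low-altitude goat by RPM in 3 tissues, and below in another. The log2 fold change, high over low, was 0.71 in heart, 0.62 in lung and 0.93 in muscle, and -0.34 in liver. With each goat left out in turn the value ran from 0.35 to 0.91 in heart and from -0.52 to -0.14 in liver. The difference between tissues was tested by the interaction of tissue and altitude in edgeR, with an unadjusted p of 0.166 and an adjusted p of 1 over all 1391 rows. That fit treats the libraries of a goat as independent. With the goat added as a block, the same edgeR test gave an unadjusted p of 0.0718 and an adjusted p of 0.885. The difference is thus not shown by either fit. In liver the groups were separated by 7679 against 7689.8 RPM, and with TMM-scaled totals they overlapped there and in heart.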

How the results depend on the processing

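Of 456 alternative values of the 36 log2 fold changes between altitudes of the 6 rows other than miR-29b-5p, 410 kept their direction and 46 turned, in 16 results, none larger than 0.38 in size; the cause was not tested. MiR-29b-5p was left out for its few reads, and its value in spleen ran from -3.95 to 4.06. No member was called between altitudes in any fit. Library totals in place of TMM shifted the median log2 fold change by 0.16 in heart, -0.11 in lung and -0.12 in muscle. With library totals miR-21-3p in heart became 0.0791, miR-21-5p in heart 0.13, miR-29a-5p in lung -0.0201, miR-29b-3p in liver -0.11 and in lung -0.20, and miR-29c-3p in muscle -0.0782. In 1 fit over 36 libraries miR-21-5p in lung became 0.10, miR-29a-5p in kidney 0.0114 and in spleen -0.0199, and miR-29b-3p in heart -0.0389. With DESeq2 miR-29a-5p in kidney became 0.0149 and miR-29b-3p 0.0143, and with RLE size factors 0.0220 and 0.0138.

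High and low goats share only a replicate number, and over 18 pairs the correlation of their deviations averaged 0.0746. It was 0.513, 0.353 and 0.447 in heart, where all 3 pairs were above 0.1, and -0.109, -0.270 and -0.462 in kidney. With that number as a paired block miR-21-3p in heart became 0.17, miR-21-5p in heart 0.0175, miR-29a-3p in spleen -0.0290, miR-29a-5p in spleen -0.0102 and miR-29b-3p in lung -0.0341.

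With each goat left out in turn, the lowest and highest log2 fold changes were as follows. For miR-21-3p they were -0.48 to 0.82 in heart, -2.06 to -0.70 in liver and -3.58 to -2.35 in lung. For miR-21-5p they were -0.29 to 0.0935 in heart, -0.32 to 0.14 in liver, -0.23 to 0.19 in lung and -0.60 to 0.0768 in muscle. For miR-29a-3p they were -0.40 to 0.30 in spleen. For miR-29a-5p they were -0.35 to 0.46 in kidney, -0.0176 to 0.29 in lung, -0.0512 to 0.59 in muscle and -0.32 to 0.25 in spleen. For miR-29b-3p they were -0.19 to 0.0441 in kidney, -0.18 to 0.28 in liver, -0.27 to 0.41 in lung and -0.81 to 0.0697 in spleen. For miR-29c-3p they were -0.15 to 0.23 in muscle. The difference of the means over 6 tissues ran, on leaving out each goat, for miR-21-5p -0.35 to 0.12 and for miR-29b-3p -0.0767 to 0.21.

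With arms summed, 4 of 4 names differed between tissues. With TMM-scaled totals the log2 ratio of miR-29b-3p in spleen over muscle was 0.85, miR-21-5p had 0 tissue pairs with an adjusted p under 0.05 and miR-29c-3p had 10. With a pseudocount of 10 the mean difference of miR-29c-3p over 6 tissues was -0.50. Alternatives chosen after seeing the data gave a difference in the log2 ratio of miR-29a-3p to miR-29c-3p of 0.89 without heart and 1.24 without liver.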
